A study of Mus musculus with 7 samples.

Results

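The subject here is 33 genes of microglia and border macrophages, the resident macrophages of the brain, measured in the embryonic mouse subpallium. The genes were listed by name and each was read from its brightest probe, out of 17178 genes named on the array. They fall into 4 microglial genes, 8 border macrophage genes and 21 genes that both cell types share. Tissue was the septum and ganglionic eminences of CD-1 embryos, all female, at E12.5, with 1 embryo on each of 7 arrays. The 4 control arrays are called Control, and the labels do not say which of the floxed allele and the Cre driver these embryos carried. The 3 arrays labelled Otx2cKO are RxCre conditional knockouts, in which a floxed allele of the forebrain homeobox gene Otx2 is recombined. RxCre acts across the forebrain except its caudal dorsomedial part, and the sources used here do not say whether it acts in macrophages. The question of the comparison is how gene expression differs without Otx2.

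Microglia arise from macrophages of the yolk sac, not from the neural tube, and colonise the brain early in development. Border macrophages share that early origin but live in the meninges, the choroid plexus and around vessels. CSF1R signalling keeps both populations alive, and the transcription factors PU.1 (Spi1), IRF8 and RUNX1 direct their development. In the adult brain P2ry12 and Trem2 are microglial genes while Mrc1, Lyve1 and Cd163 are found on border macrophages. In the embryo the separation is less strict, and several genes of the second group are also known from young microglia, endothelium or platelets.

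PU.1, encoded by the member Spi1, binds purine-rich sites, and the core of such a site was looked for in the members' promoters. Of the 33 genes 27 had a promoter in the RefSeq table (build GRCm38.p6), which spans 250 bases before to 50 bases after each start. The letters GAGGAAG, on either strand, were present for 12 of the 27 genes (44.4%) and for 15.4% of the 27025 genes in the table. They were found for 2 of 4 microglial, 3 of 7 border macrophage and 7 of 16 shared genes. A match is a string of letters and no evidence of binding. The 250 bases before the start are shown for a pair of border macrophage genes with wide variation between embryos, F13a1 and Mrc1, and for Trem2 and C1qc, whose spans of 1.34 and 1.14 log2 units between the lowest and the highest embryo were smaller than the 5.38 of F13a1 and 4.84 of Mrc1, on each gene's own strand with the motif in capitals.
F13a1 (chr13:37050245-37050494, minus strand): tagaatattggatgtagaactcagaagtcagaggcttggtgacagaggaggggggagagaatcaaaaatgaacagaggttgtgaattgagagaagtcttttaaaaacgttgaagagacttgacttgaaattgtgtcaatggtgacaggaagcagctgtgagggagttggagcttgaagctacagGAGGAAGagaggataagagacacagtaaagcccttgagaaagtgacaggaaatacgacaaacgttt
Mrc1 (chr2:14229164-14229413, plus strand): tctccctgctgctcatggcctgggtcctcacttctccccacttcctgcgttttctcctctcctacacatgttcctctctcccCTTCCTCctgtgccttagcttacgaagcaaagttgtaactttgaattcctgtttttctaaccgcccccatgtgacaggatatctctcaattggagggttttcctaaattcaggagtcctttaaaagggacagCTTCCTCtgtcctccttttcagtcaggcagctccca
Trem2 (chr17:48346151-48346400, plus strand): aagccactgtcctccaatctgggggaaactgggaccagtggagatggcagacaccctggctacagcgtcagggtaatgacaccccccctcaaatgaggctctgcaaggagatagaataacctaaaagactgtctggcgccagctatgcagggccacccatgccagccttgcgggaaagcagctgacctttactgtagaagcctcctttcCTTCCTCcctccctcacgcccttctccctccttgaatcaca
C1qc (chr4:136892915-136893164, minus strand): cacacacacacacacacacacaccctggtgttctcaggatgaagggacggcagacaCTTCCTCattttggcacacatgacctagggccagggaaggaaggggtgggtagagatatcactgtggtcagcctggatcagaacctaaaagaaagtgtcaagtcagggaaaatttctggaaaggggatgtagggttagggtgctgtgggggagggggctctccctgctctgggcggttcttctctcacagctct
The Mrc1 stretch holds the motif at 2 places and the others at 1. P2ry12, Cx3cr1, Stab1 and Ms4a7 had no match in the window.

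Values are log2 signals relative to each array's 75th percentile, so a value of 0 is the signal that 3 in 4 spots lie below. A gene was tested when its probe was well above background, in the scanner software's own call, on at least 3 of the 7 arrays. Between 68.4% and 72.2% of spots met that call per array. The embryos came from 4 litters: control replicates 2 and 3 and Otx2cKO replicates 1 and 3 share litter 2, and the other arrays are each alone in theirs. Slide 1 held control replicates 1 and 2 and Otx2cKO replicate 1, and slide 2 the rest. Otx2 itself, which checks the labels, was higher in the arrays labelled Otx2cKO. Its signal stood at 0.13, 0.48, 0.42 and 0.50 in the controls, replicates 1 to 4, and at 1.73, 2.27 and 1.72 in Otx2cKO replicates 1 to 3; the groups differed by 1.52 ± 0.17 (SE, 4 and 3 arrays; adjusted p = 0.0288 in limma). The signal of the targeted gene went against the labels, so each direction below is between arrays labelled Otx2cKO and arrays labelled Control. The sources used here do not say whether the Otx2 probe lies in the part that RxCre removes.

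Of the 33 genes 32 had a named probe and 28 were tested. Cd68, a lysosomal glycoprotein gene of macrophages, had no probe named through RefSeq and was not analysed here. Cd163, the haemoglobin scavenger receptor of border macrophages, did not rise well above background on a single array. Spi1 passed that call on 1 control and 1 Otx2cKO array, so the gene for PU.1 has no usable value. Lyz2 and Itgam, which encode lysozyme and the integrin chain CD11b, passed it on Otx2cKO replicate 2 and on no other array. Their mean log2 signals were 1.45-fold and 1.28-fold higher in the Otx2cKO group, and both folds rest largely on that 1 array of 3. Arrays without the call entered these means at their dim signal or at the scale's floor of -7.49, so the folds are not lower bounds. For Itgam the value of -7.21 in Otx2cKO replicate 1 also entered. The number of the 32 genes above background was 29, 27, 27 and 27 on control replicates 1 to 4 and 25, 29 and 28 on Otx2cKO replicates 1 to 3.

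None of the 28 tested genes passed an adjusted p of 0.05 in limma, in either direction. In the same limma fit 28 of 13341 genes (0.21%) passed an adjusted p of 0.05, with 12 higher (0.0899%) and 16 lower (0.12%). The members gave 1 gene of 28 at an unadjusted p under 0.05, against 11.1% of all genes tested. The Otx2cKO arrays lay entirely outside the control range for 1 member, Ctss, against 12.7% of all genes. The smallest adjusted p among the members was 0.394, for Runx1. The median difference was -0.012 over the 4 microglial genes, -0.021 over the 18 shared genes tested and -0.60 over the 6 border macrophage genes tested, beside 0.019 over all genes tested. In bulk tissue, fewer cells of a type and less RNA per cell cannot be told apart. In the plot of differences the intervals of 4 of the 6 border macrophage genes are several log2 units long. Those of the microglial and most shared genes are shorter but still include sizeable differences in both directions, such as -0.56 to 0.87 for Trem2.

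**Figure D1:**
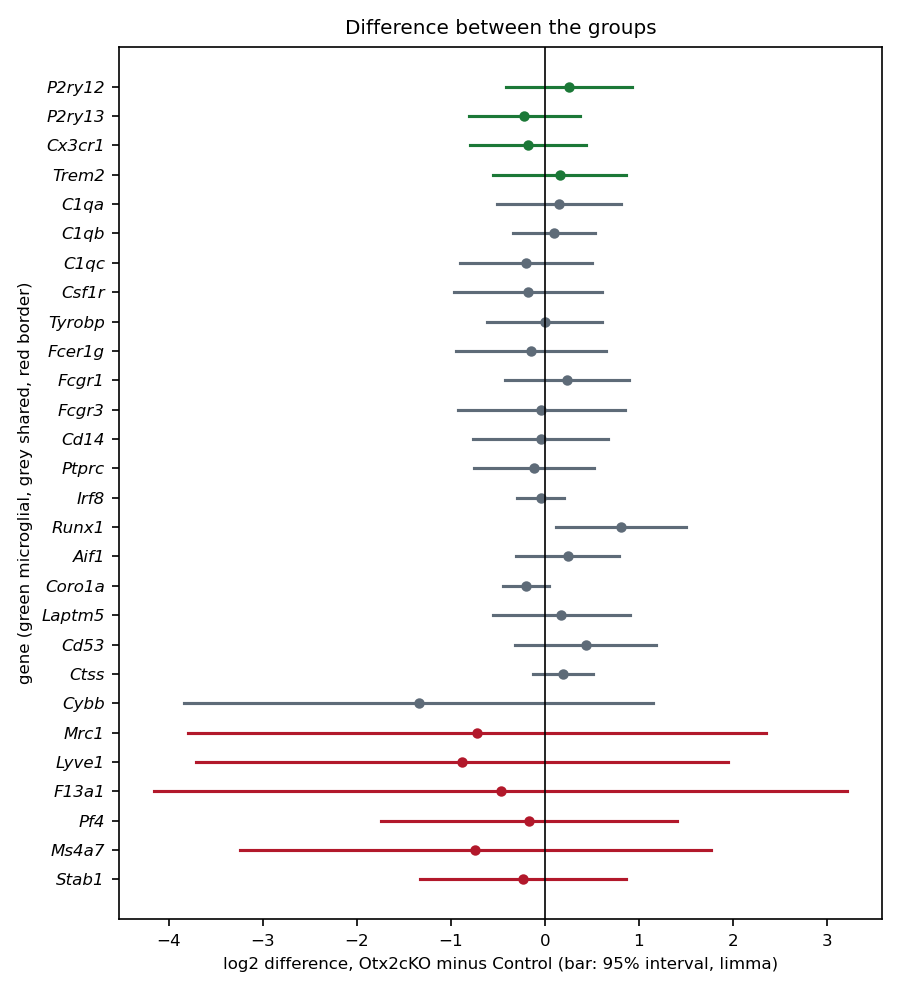
Log2 difference (Otx2cKO minus Control, horizontal axis) of the 28 tested genes with limma's 95% interval; green marks microglial, grey shared and red border macrophage genes. Only the interval of Runx1 lies wholly on one side of 0, and that of F13a1, -4.16 to 3.22, is the longest.

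None of the 4 microglial genes passed the test, and they varied moderately between embryos. P2ry12, the ADP receptor that guides microglial processes, had log2 signals of -2.63, -2.59, -2.79 and -3.24 across the 4 controls and -2.88, -1.91 and -2.88 across the 3 Otx2cKO arrays, in the order of their replicate numbers, as for every gene below. The highest value was in Otx2cKO replicate 2, and the other Otx2cKO arrays lay within the control range. The difference was 0.25 ± 0.28 (SE, 4 and 3 arrays; adjusted p = 0.778 in limma; 95% interval -0.42 to 0.93). P2ry13, a neighbouring receptor of the same family, had -3.45, -3.73, -3.77 and -4.17 in the controls and -4.12, -3.49 and -4.38 in the Otx2cKO arrays, with Otx2cKO replicate 3 lowest and an overlap of the groups. Its difference was -0.22 ± 0.25, with an interval of -0.81 to 0.37.

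Cx3cr1 encodes the receptor for the neuronal chemokine fractalkine. Its signals were -1.28, -1.996, -1.91 and -1.69 in the controls and -1.95, -1.41 and -2.34 in the Otx2cKO arrays. Control replicate 1 and Otx2cKO replicate 2 were high and Otx2cKO replicate 3 was low, so that the groups overlapped (difference -0.18 ± 0.26, interval -0.79 to 0.44). Trem2, the lipid-sensing receptor that signals through the adaptor DAP12, had -1.46, -1.37, -1.40 and -2.23 in the controls and -1.64, -0.90 and -1.84 in the Otx2cKO arrays. Control replicate 4 stood below all other arrays for Trem2 and also for P2ry12. The Trem2 difference was 0.16 ± 0.30 (interval -0.56 to 0.87), and its second probe gave 0.13. From the lowest to the highest array the microglial genes spanned 0.93 to 1.34 on the log2 scale, at most 2.53-fold.

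The genes for the 3 chains of complement C1q, the initiator of the classical pathway that macrophages secrete in the brain, shared their highest array but not the order of the others. C1qa had -1.71, -2.17, -1.80 and -1.65 in the controls and -1.93, -1.01 and -2.12 in the Otx2cKO arrays. C1qb had -2.30, -2.91, -2.64 and -2.68 and -2.77, -2.22 and -2.64, and C1qc had -0.32, -0.88, -0.22 and -0.37 and -0.85, 0.024 and -1.12. Otx2cKO replicate 2 was the highest array for each chain, and the lowest was control replicate 2 or Otx2cKO replicate 3. Their differences were 0.15 ± 0.28, 0.091 ± 0.18 and -0.20 ± 0.29 (limma, adjusted p = 0.881, 0.89 and 0.837), with groups that overlapped in every case.

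Among the shared receptors and adaptors, Csf1r encodes the receptor on which the survival of these cells depends. It had -0.72, -1.48, -1.03 and -0.999 in the controls and -1.54, -0.44 and -1.74 in the Otx2cKO arrays. Otx2cKO replicates 1 and 3 were the lowest arrays and Otx2cKO replicate 2 the highest, which left a difference of -0.18 ± 0.33 (interval -0.97 to 0.61). Its dimmer probes gave differences of the other sign, 0.20 and, on a probe above background on 5 arrays, 0.078. Tyrobp, the gene for DAP12, had -0.27, -0.98, -0.56 and -0.45 and -0.74, -0.029 and -0.94, with Otx2cKO replicate 2 again highest and a difference of -0.0039 ± 0.26 (interval -0.61 to 0.60). Fcer1g, the second adaptor of this kind, and the Fc receptor genes Fcgr1 and Fcgr3 differed by -0.15 ± 0.34, 0.23 ± 0.28 and -0.039 ± 0.37. Cd14, the lipopolysaccharide co-receptor gene, differed by -0.044 ± 0.30, and Ptprc, which encodes the leukocyte antigen CD45, by -0.12 ± 0.27. All 7 tested genes of this class had their highest value in Otx2cKO replicate 2 and their lowest in control replicate 2, Otx2cKO replicate 1 or Otx2cKO replicate 3. Over all genes Otx2cKO replicate 2 was highest for 28.2%, and those low arrays were lowest for 12.2%, 14.7% and 16.6%.

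Genes for intracellular and lysosomal proteins included Aif1, which encodes the microglial protein IBA1. It had -1.11, -1.36, -0.77 and -0.76 in the controls and -0.95, -0.29 and -1.03 in the Otx2cKO arrays (difference 0.24 ± 0.23, interval -0.31 to 0.79; 0.24 and 0.2 on its 2 probes). Laptm5 and Cd53, leukocyte membrane protein genes, differed by 0.17 ± 0.31 and 0.43 ± 0.31 and were also highest in Otx2cKO replicate 2. Coro1a, an actin regulator of leukocytes that neurons also express, differed from these in its order of arrays, with 3.21, 2.89, 3.17 and 2.996 in the controls and 2.95, 2.79 and 2.86 in the Otx2cKO arrays. Its lowest array was Otx2cKO replicate 2, and its difference was -0.20 ± 0.10 (adjusted p = 0.528 in limma). A second Coro1a probe was likewise lowest there.

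For Ctss, the lysosomal protease cathepsin S, the spot on Otx2cKO replicate 2 was marked as an outlier and left out, so its fit rests on 4 and 2 arrays. It had -0.16, -0.46, -0.15 and -0.15 in the controls and 0.049 and -0.12 in Otx2cKO replicates 1 and 3, a difference of 0.19 ± 0.13 (limma, adjusted p = 0.634). With the spot kept the difference was 0.35, with an unadjusted p of 0.0426 and an adjusted p of 0.439 in limma, and in the authors' deposited table it was 0.32 (adjusted p = 0.358 in limma), so Ctss did not pass there either. Control replicate 2 lay apart from the other controls, and without it the difference was 0.12. Cybb, the catalytic chain of the phagocyte oxidase, was above background on 3 arrays only and had -5.99, -2.90, -7.49 and -6.96 in the controls and -7.49, -6.75 and -7.31 in the Otx2cKO arrays. Its single high value, in control replicate 2, was not repeated on its other probe, which was above background on control replicate 4 alone. The Cybb difference of -1.34 ± 1.05 rests largely on that value.

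Of the transcription factor genes Irf8 and Runx1 were tested. Irf8, like Csf1r, was highest in Otx2cKO replicate 2 and lowest in Otx2cKO replicate 3, but over a smaller span. It had -1.72, -1.80, -1.84 and -1.79 in the controls and -1.91, -1.61 and -1.98 in the Otx2cKO arrays, a span of 0.37 over all 7 embryos that 70.6% of genes reached or exceeded. Its difference was -0.046 ± 0.11 (interval -0.30 to 0.20). A dimmer Irf8 probe gave 0.28 and was highest, not lowest, in Otx2cKO replicate 3. Runx1, which some neurons and blood progenitors also express, had -4.61, -5.20, -4.57 and -3.86 in the controls and -3.58, -3.88 and -3.80 in the Otx2cKO arrays. Control replicate 4 lay within the Otx2cKO values and the other controls below them. The difference of 0.81 ± 0.29 had an unadjusted p of 0.0282 and an adjusted p of 0.394 in limma and did not pass; a second probe, for another transcript, passed the background call on 0 arrays.

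The border macrophage genes varied between embryos far more than the microglial genes, in both groups. F13a1, which encodes coagulation factor XIII A and marks macrophages of connective tissue, had -1.05, -5.44, -1.61 and -0.81 in the controls and -5.40, -0.061 and -2.64 in the Otx2cKO arrays. Control replicate 2 and Otx2cKO replicate 1 were both near the bottom, and Otx2cKO replicate 2 was highest, 41.7-fold above the lowest array. Among the 12673 genes measured on all 7 arrays 0.0947% spanned as much. The difference between groups was -0.47 ± 1.55 (SE, 4 and 3 arrays; adjusted p = 0.936 in limma), with an interval of -4.16 to 3.22.

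Mrc1, the mannose receptor CD206, had -3.16, -6.16, -3.19 and -2.54 in the controls and -6.79, -1.95 and -4.71 in the Otx2cKO arrays. The same 2 embryos were low and the same 1 was high, a 28.6-fold span (difference -0.72 ± 1.30, interval -3.80 to 2.35). Lyve1, a hyaluronan receptor shared with lymphatic vessels, had -3.86, -6.34, -3.71 and -3.43 in the controls and -7.49, -2.75 and -5.42 in the Otx2cKO arrays. It was not well above background in Otx2cKO replicate 1, whose value of -7.49 is the floor of the scale. The difference on this brighter Lyve1 probe was -0.88 ± 1.19. A second probe, above background on 4 arrays, gave a smaller difference of -0.14. That probe was at the floor in control replicate 2 and in Otx2cKO replicates 1 and 3. Ms4a7, a membrane-spanning gene of macrophages, had -4.41, -7.43, -4.74 and -4.32 and -7.49, -3.98 and -6.43. It was not above background in control replicate 2 or Otx2cKO replicate 1, and its difference was -0.74 ± 1.05 (interval -3.24 to 1.76).

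Pf4 and Stab1 varied less. Pf4, a chemokine gene of platelets and macrophages, had 0.32, -0.76, 0.60 and 1.12 in the controls and -0.63, 1.62 and -0.56 in the Otx2cKO arrays, a span of 5.2-fold with a difference of -0.17 ± 0.66. Stab1, a scavenger receptor gene also active in endothelium, had 0.31, -0.75, -0.17 and 0.21 and -0.93, 0.75 and -0.82, a span of 3.21-fold with a difference of -0.23 ± 0.46. In both genes control replicate 2 and Otx2cKO replicates 1 and 3 were the 3 low arrays.

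**Figure D2:**
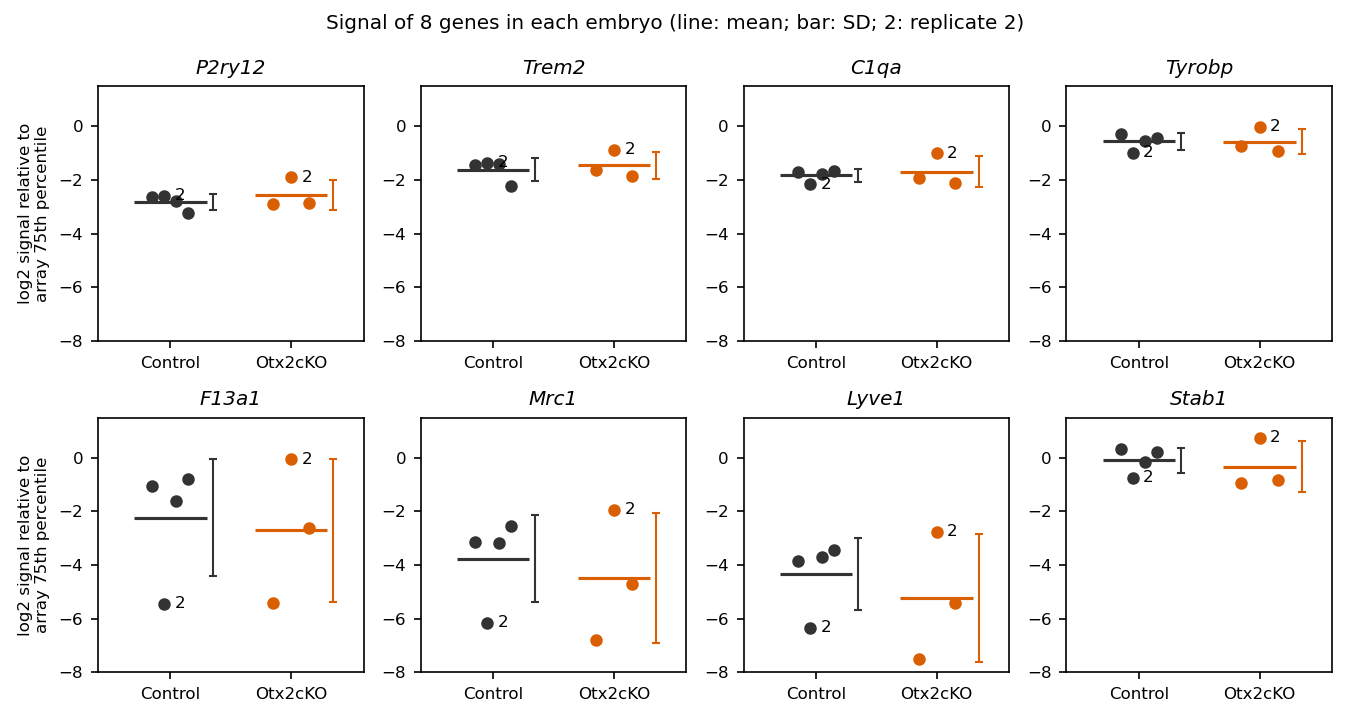
Log2 signal relative to the array's 75th percentile (vertical axis) of 4 microglial or shared genes (top) and 4 border macrophage genes (bottom), with 1 point per embryo, a line at each group's mean and a bar for its SD. The points of P2ry12, Trem2, C1qa and Tyrobp lie close together, whereas F13a1 and Mrc1 run from 4.84 to 5.38 log2 units between embryos and Otx2cKO replicate 2 is the highest point of all 4 lower panels.

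Measured as the span from the lowest to the highest embryo, the median was 1.2 for the 4 microglial genes, 1.16 for 17 shared genes and 4.12 for the 6 border macrophage genes, against 0.53 for all 12673 genes with complete values. These spans describe 7 embryos and carry no test. Lyve1, Ms4a7 and Cybb have their lowest value at the floor, so the spans on these probes are lower limits. That of Cybb is set by its single high value, in control replicate 2, which its other probe did not repeat. The second list of border macrophage genes, which holds no member, also spanned widely, and its 16 genes with complete values had a median span of 2.33, with 4.65 for Ccl24. The 18 further microglial genes had a median span of 1.007.

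Embryos were ordered similarly by most members, and the order was not that of the groups. Otx2cKO replicate 2 was the highest array for 22 of 27 members with complete values (81.5%), all 6 border macrophage genes included, and for 28.2% of all genes. The lowest array was control replicate 2 for 10 members (37.0%), Otx2cKO replicate 3 for 7 (25.9%) and Otx2cKO replicate 1 for 5 (18.5%). Over all genes these arrays were lowest for 12.2%, 16.6% and 14.7%. Relative to the control mean, the median of the border macrophage genes was 0.54, -2.10, 0.53 and 0.91 in the controls and -2.65, 1.44 and -0.92 in the Otx2cKO arrays. That of the shared genes was 0.094, -0.35, 0.00015 and 0.15 and -0.14, 0.63 and -0.32, and that of the microglial genes 0.26, 0.14, 0.019 and -0.41 and -0.15, 0.52 and -0.42. Among the controls the median of the 4 microglial genes was lowest in replicate 4, where that of the border macrophage genes was highest, although Cx3cr1 alone was lowest in replicate 2. The 18 further microglial genes did not share that order. Their median was 0.16, -0.18, 0.089 and 0.018 in the controls, lowest in replicate 2 as for the border macrophage genes, and -0.30, 0.55 and -0.20 in the Otx2cKO arrays.

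**Figure D3:**
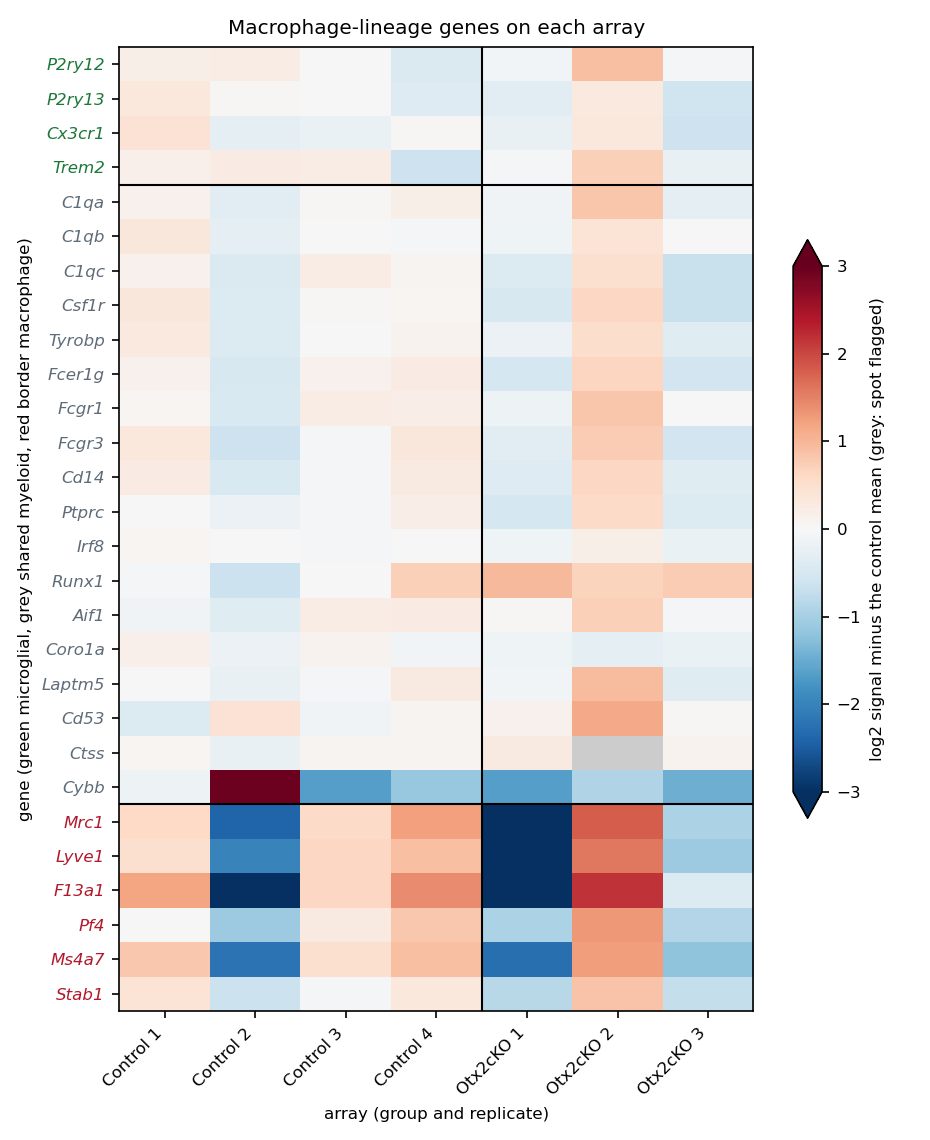
Log2 signal minus the control mean (colour) of the 28 tested genes (rows) on the 7 arrays (columns), with grey for the spot left out. The column of Otx2cKO replicate 2 is red for the rows other than Coro1a and Cybb, which are blue there, and Ctss, which is grey, and the clearly blue cells of the border macrophage rows fall in control replicate 2 and Otx2cKO replicates 1 and 3.

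Of the 4 embryos of litter 2, 3 were the low ones for border macrophage genes, namely control replicate 2 and Otx2cKO replicates 1 and 3. The remaining embryo, control replicate 3, had a median of 0.53 and lay among the embryos of the other litters. Within litter 2 the median group difference of the border macrophage genes was -0.69, that of the shared genes -0.096 and that of the microglial genes -0.28. Within slide 1, which has 1 Otx2cKO array, the values were -1.85, -0.13 and -0.29, and within slide 2 they were -0.40, 0.021 and 0.24. With slide as a block they were -0.99, -0.041 and 0.0049. No member passed the threshold within litter 2, within slide 2 or with slide as a block. Within litter 2 and within slide 2 no gene at all passed, so a member could hardly have done so there. Leaving out Otx2cKO replicate 2 moved the border macrophage median from -0.60 to -1.76, and leaving out Otx2cKO replicate 1 turned it to 0.23, so the sign of that median depends on which embryo is counted.

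Genes of some other cell types that the dissection could hold moved with the border macrophage genes, and those of others less closely or not at all. The median of the mesenchyme and pericyte list, fibroblast and vessel wall genes, was 0.30, -1.80, 0.57 and 0.67 in the controls and -1.25, 1.72 and -0.94 in the Otx2cKO arrays. Its arrays fall in the same high and low sets as those of the border macrophage genes, and 14 of 14 of its genes with complete values had their lowest array among control replicate 2 and Otx2cKO replicates 1 and 3. Over all genes these arrays were lowest for 12.2%, 14.7% and 16.6%. The endothelial median was 0.075, -0.38, 0.15 and 0.24 and -0.38, 0.80 and -0.53, the megakaryocyte and platelet median -0.30, -0.40, 0.17 and 0.43 and -0.48, 1.17 and -0.48, and the erythroid median 0.062, -0.34, 0.44 and -0.0039 and 0.10, 0.59 and -0.21. Otx2cKO replicate 2 was highest for 10 of 14 mesenchyme, 10 of 11 endothelial, 6 of 7 platelet and 9 of 10 erythroid genes. It was highest for 4 of 6 monocyte and granulocyte, 1 of 6 lymphatic and sinusoidal endothelial and 0 of 4 lymphocyte and mast cell genes. The share over all genes was 28.2%. In Otx2cKO replicate 1, where the border macrophage median was -2.65, the erythroid median was 0.10 and the lymphocyte and mast cell median 0.12. The part of these cells in the members' values was not tested beyond 1 fit: with the mesenchyme median as a covariate the border macrophage median difference was -0.46, and no member passed.

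**Figure D4:**
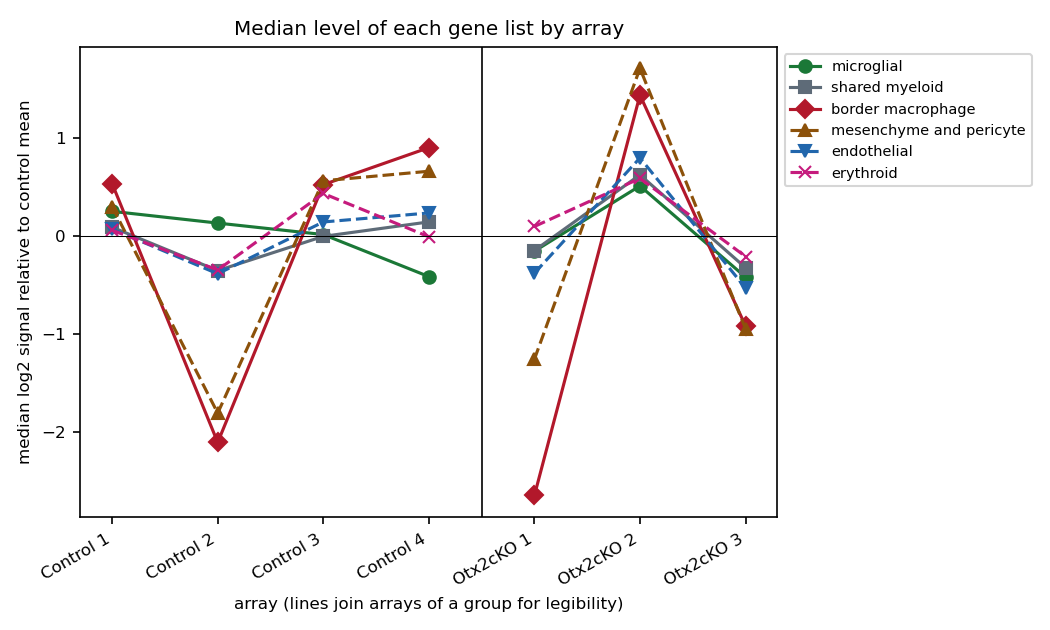
Median log2 signal relative to the control mean (vertical axis) of 3 macrophage gene lists (solid) and 3 lists of other cell types (dashed) on each array (horizontal axis). The border macrophage line follows the mesenchyme and pericyte line, with both low in control replicate 2 and Otx2cKO replicates 1 and 3 and high in Otx2cKO replicate 2, while the microglial line stays between -0.42 and 0.52.

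On a linear scale the summed level of the mesenchyme and pericyte list, given as its log2, ran from 3.75 to 5.06 in controls and from 3.72 to 5.84 in the Otx2cKO arrays. The range was 3.41 to 4.05 and 3.28 to 4.55 for endothelial genes, -0.17 to 0.69 and -0.2 to 1.25 for platelet genes, and 8.29 to 8.95 and 8.24 to 9.03 for erythroid genes. Lymphatic and sinusoidal endothelial genes ran from 3.47 to 3.77 and from 3.11 to 3.48, carried mostly by Reln, a gene of Cajal-Retzius neurons. White blood cells of other kinds were near the detection limit. The summed level of monocyte and granulocyte genes ran from -2.09 to -1.39 and from -2.07 to -1.16, and among its 11 genes with a probe Ccr2, Elane and Camp were not above background on any array. Lymphocyte and mast cell genes ran from -3.86 to -2.43 and from -3.21 to -2.76, with Rag1, Ncr1, Mcpt4 and Ms4a2 not above background on any array.

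Other genes of these pathways gave the same picture, and none of those tested passed the threshold in either direction. In the CSF1 receptor and TGF-beta list 0 of 9 passed (median 0.029). The smallest p were those of Tgfbr1, a TGF-beta receptor, at 0.19 ± 0.091, and Tgfb1, its ligand, at -0.45 ± 0.26. The ligands of CSF1R, named here after their values were seen, had 0.13 ± 0.14 for Csf1 and -0.52 ± 0.35 for Il34. In the complement list 0 of 9 passed (median 0.0075), with 0.83 ± 0.38 for C4b and 0.47 ± 0.27 for C2, both components of the classical pathway downstream of C1q. In the list of DAP12 and Fc receptor signalling 0 of 14 passed (median -0.054), with 0.18 ± 0.16 for the phospholipase gene Plcg2.

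Of 18 further microglial genes tested 0 passed (median 0.045). Sall1, a zinc finger regulator of microglial identity that neural progenitors also express, had -3.09, -2.99, -3.20 and -3.11 in the controls and -2.73, -2.80 and -2.59 in the Otx2cKO arrays, with all Otx2cKO arrays above all controls and a difference of 0.39 ± 0.087 (limma, adjusted p = 0.24). Selplg, a selectin ligand gene, was also higher in every Otx2cKO array, by 0.34 ± 0.15 (adjusted p = 0.46 in limma). The Otx2cKO arrays lay entirely outside the control range for 11.1% of the further microglial genes tested, against 12.7% of all genes tested. Of 16 further border macrophage genes 0 passed (median -0.27). Ednrb, an endothelin receptor gene of the neural tube, had a difference of -0.27 ± 0.086 with groups that did not overlap, and Otx2cKO replicate 2 was not its highest array.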

How the data were processed

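Each array held 45018 spots in 1 colour. Per the file headers, Agilent Feature Extraction 10.7.3.1 gave each spot's intensity, background-subtracted and detrended within the array, without normalization across arrays. Version 10.5 is named in the submitters' processing notes. The authors' deposited value table holds log2 values normalized between arrays by steps not given in the sources used here, and served as an alternative.

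Control spots and spots marked as outliers (1.24% to 2.51% of spots per array) were left out. Signals were scaled to the 75th percentile of their array, given a floor of -7.49 on the log2 scale, and averaged over spots of a probe as log2 values. Of 41174 probes 24844 had 1 gene symbol through RefSeq accessions (GRCm38.p6 table, names only) and 16330 had none. A gene's brightest probe by mean log2 signal was used, and tested when well above background on at least 3 of 7 arrays with at least 2 values per group. This left 13341 genes, fitted with limma 3.58.1 in R 4.3.3 (no term but group), with Benjamini-Hochberg adjustment over all of them and a threshold of 0.05. The fit was checked on simulated data. The scanner files carry no mean signal, so the normexp alternative used the median signal.

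Alternatives covered background, scaling, the filter, probes, flagged spots, slide, litter, replicate number, a mesenchyme covariate, array weights and each array left out. The members and lists were chosen with earlier results of these data known, and the slide 1 fit was added after seeing the data. All 33 members are accounted for; of each companion list the 2 genes with the smallest p are named where none passed, apart from a few results that are not reported here. Precision is limited by the number of arrays.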

Additional observations from a re-analysis of the deposited data

Results flagged for a closer look

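For 4 tested members 1 control lay apart from the other 3, its gap to the nearest control exceeding Dixon's 95% critical share of the controls' range. These were Ctss in control replicate 2 (log2 signal -0.46), Lyve1 in control replicate 2 (-6.34), Ms4a7 in control replicate 2 (-7.43) and Trem2 in control replicate 4 (-2.23). Chance alone flags about 1 in 20 such groups.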

How the results depend on the processing

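No member passed the threshold in any of the 23 alternatives; the lowest adjusted p of any member was 0.237 in limma. The medians of the microglial, border macrophage and shared genes ran from -0.29 to 0.24, from -1.85 to 0.23 and from -0.2 to 0.14. The alternatives are not all separate checks. Litter as a block gave the same class medians as litter 2 alone, and the replicate block the same as leaving out control replicate 4. Over all genes, limma called 50 with normexp, 43 in the authors' value table, 60 with array weights, 17 with slide as a block or the mesenchyme covariate, and 11 without the filter. It called 0 in slide 1 or 2, with litter as a block, in litter 2 and with the replicate block, and 0 to 25 with 1 array left out. Where 0 genes were called over all, the lack of a called member says little about the members. Replicate numbers did not pair the samples (correlations of deviations 0.11, -0.53 and 0.026).

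Signs turned only for differences that were not called, in 24 of 28 members. With normexp Cd14 had 0.065 and Ptprc 0.024. With the mean of probes Csf1r had 0.034, Irf8 0.12 and Ptprc 0.091. Slide 2 gave Cd14 0.016, Cybb 0.20, Irf8 0.016, P2ry13 0.029, Ptprc 0.016 and Tyrobp 0.021, and slide 1 gave C1qb -0.16, P2ry12 -0.28 and Trem2 -0.22. Litter as a block and litter 2 alone gave C1qa -0.041, Cd53 -0.079, Laptm5 -0.0697, P2ry12 -0.19 and Trem2 -0.36. The replicate block gave Cd14 0.046, F13a1 0.0024, Fcgr3 0.074, Pf4 0.093, Trem2 -0.051 and Tyrobp 0.035. The mesenchyme covariate gave Tyrobp 0.0200, and array weights gave C1qa -0.077 and Laptm5 -0.11. With 1 array left out the ranges were -0.38 to 0.13 for Cd14, -0.44 to 0.23 for Fcgr3, -0.27 to 0.18 for Tyrobp, -0.0696 to 0.20 for C1qb, -1.79 to 0.88 for F13a1, -0.91 to 0.21 for Pf4, -0.13 to 0.35 for Trem2, -0.55 to 0.061 for Fcer1g, -2.12 to 0.25 for Lyve1, -1.99 to 0.43 for Mrc1 and -1.73 to 0.0204 for Ms4a7. They were -0.47 to 0.092 for Ptprc, -0.77 to 0.066 for Stab1, -0.19 to 0.36 for C1qa, -0.071 to 0.43 for Fcgr1, -0.22 to 0.44 for Laptm5, -0.0695 to 0.42 for P2ry12, -0.54 to 0.034 for C1qc, -0.58 to 0.068 for Csf1r, -0.42 to 0.041 for Cx3cr1 and -0.16 to 0.029 for Irf8. The cause was not tested.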
